A study of Arabidopsis thaliana with 6 samples.

Results

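The histone genes of Arabidopsis thaliana were followed in seedling roots grown with or without phosphate. They were chosen by locus ID, as 41 genes for the linker histone H1 and the core histones H2A, H2B, H3 and H4, out of 33602 genes in the deposited table. All 41 IDs were found in the table and in the reference annotation. They fall into 9 classes: 8 genes for H4, 5 for H3.1, 3 for H3.3, 4 for canonical H2A, 2 for H2A.X, 3 for H2A.Z, 3 for H2A.W, 10 for H2B and 3 for H1.

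Polyadenylated RNA came from roots of Col-0 seedlings aged 8 days, and the libraries kept the strand. Replicates 1 and 2 were wild type (WT) on medium sufficient in phosphate (P+), replicates 3 and 4 were wild type on deficient medium (P-), and replicates 5 and 6 were the phl2 mutant on deficient medium. PHL2 belongs to the family of PHR1, the MYB factor that switches on genes of phosphate starvation. The labels do not give the phl2 allele, and the mutant on sufficient medium was not analysed here. A difference of phl2 that holds on any medium and one in its response to phosphate cannot be told apart.

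Core histones form the protein spool of the nucleosome, around which DNA is wrapped, and H1 binds the linker DNA between nucleosomes. Most copies of H4, H3.1, canonical H2A and H2B are needed when DNA is replicated, so their transcripts are usually most abundant in dividing cells, such as those of the root tip. H3.3, H2A.Z, H2A.X and H2A.W can be placed outside replication: H3.3 at transcribed genes, H2A.Z near transcription starts and at responsive genes, H2A.X at DNA breaks, and H2A.W in heterochromatin. Unlike the replication histone transcripts of animals, those of plants carry poly(A) tails, and so they are kept by the selection of polyadenylated RNA used here.

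Values are RPKM (reads scaled by the length of the gene and the size of the library). The gene lengths used are not given, so comparisons of level between genes are approximate. Here most abundant means highest in RPKM. Reads behind the whole table came to about 473008 to 725110 per library, only 4.15% to 7.23% of the totals the values were divided by, and the strand that was counted is not given in the sources used here. If the strand opposite to the genes was counted, the values rest on residual reads of each transcript, and levels may not compare between genes. This was not tested. The phl2 columns held equal reads in 17205 of 21181 genes (81.2%), where the pairs of wild-type libraries did so in 9.64% and 8.91%. Among histone genes this held in 32 of 41. Their differences were smaller than sampling noise, and they were counted as 1 sample. PHL2 itself (AT3G24120) stood at 1.65 and 2.37 RPKM with phosphate, 2.14 and 2.24 without, and 1.04 and 0.934 in the phl2 columns. Summed RPKM of 7 root markers was 17.1 and 13.1 with phosphate, 24.6 and 23.2 without, and 12.1 and 13.8 in phl2, with 7 of 7 above 0 in every column. Of 6 tested, 4 were called higher and 1 lower in deficient than in sufficient wild type as deposited (3 and 1 rescaled), and 3 lower in phl2 than in deficient wild type as deposited (0 rescaled). Summed RPKM of 6 shoot markers was 22.5 and 19.9 with phosphate, 16.2 and 13.7 without, and 5.92 and 6.84 in phl2, with 6 of 6 above 0 in every column. Of 5 tested, 3 were called lower in deficient than in sufficient wild type on both scales. Against deficient wild type, 3 were lower in phl2 as deposited and 0 after rescaling. Of all genes, 28% were called higher and 4.45% lower in deficient wild type as deposited, and 8.1% and 11.7% after rescaling. In phl2 against deficient wild type, 19.5% of all genes were lower as deposited and 0.0174% after rescaling. The part of root cell types and of shoot RNA in the differences below was not tested. In whole roots, fewer cells of a type and less RNA per cell cannot be told apart.

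All 8 H4 genes encode 1 protein of 103 residues, and so do all 5 H3.1 genes and all 3 H3.3 genes among themselves, with 136 residues each. H3.1 and H3.3 differ at 4 positions (97.1% identity). The 10 H2B proteins are all distinct, with 71.6% to 97.3% identity. Because the H4 genes differ only in silent positions and outside the coding sequence, the first 60 coding bases are shown for the closest pairs (RefSeq, TAIR10.1, coding strand), with capitals at each base that differs from the most common base of the 8 genes. Where bases were equally common, a single base among them was taken as the most common.
AT3G46320: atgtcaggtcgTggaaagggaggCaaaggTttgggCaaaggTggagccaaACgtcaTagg
AT3G45930: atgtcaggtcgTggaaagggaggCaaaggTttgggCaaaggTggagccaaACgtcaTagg
AT5G59690: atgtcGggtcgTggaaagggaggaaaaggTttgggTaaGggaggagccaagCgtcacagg
AT5G59970: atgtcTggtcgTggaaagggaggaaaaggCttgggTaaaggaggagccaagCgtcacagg
AT1G07820: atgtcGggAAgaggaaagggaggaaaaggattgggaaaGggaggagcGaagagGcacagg
AT1G07660: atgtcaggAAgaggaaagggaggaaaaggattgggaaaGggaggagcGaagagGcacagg
The first pair is the same over these 60 bases. Over the whole coding sequence of 312 bases the pairs share 97.4%, 97.1% and 98.1% of bases, while other pairs of the 8 genes share as little as 78.8%. Of the 50-base stretches in the exons of AT1G07660, AT3G46320, AT3G45930 and AT1G07820, 28.5%, 27.9%, 25.7% and 19.4% occur elsewhere in the genome, and their reads may be divided among copies. In all, 12 of the 41 genes hold such a stretch.

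**Figure D1:**
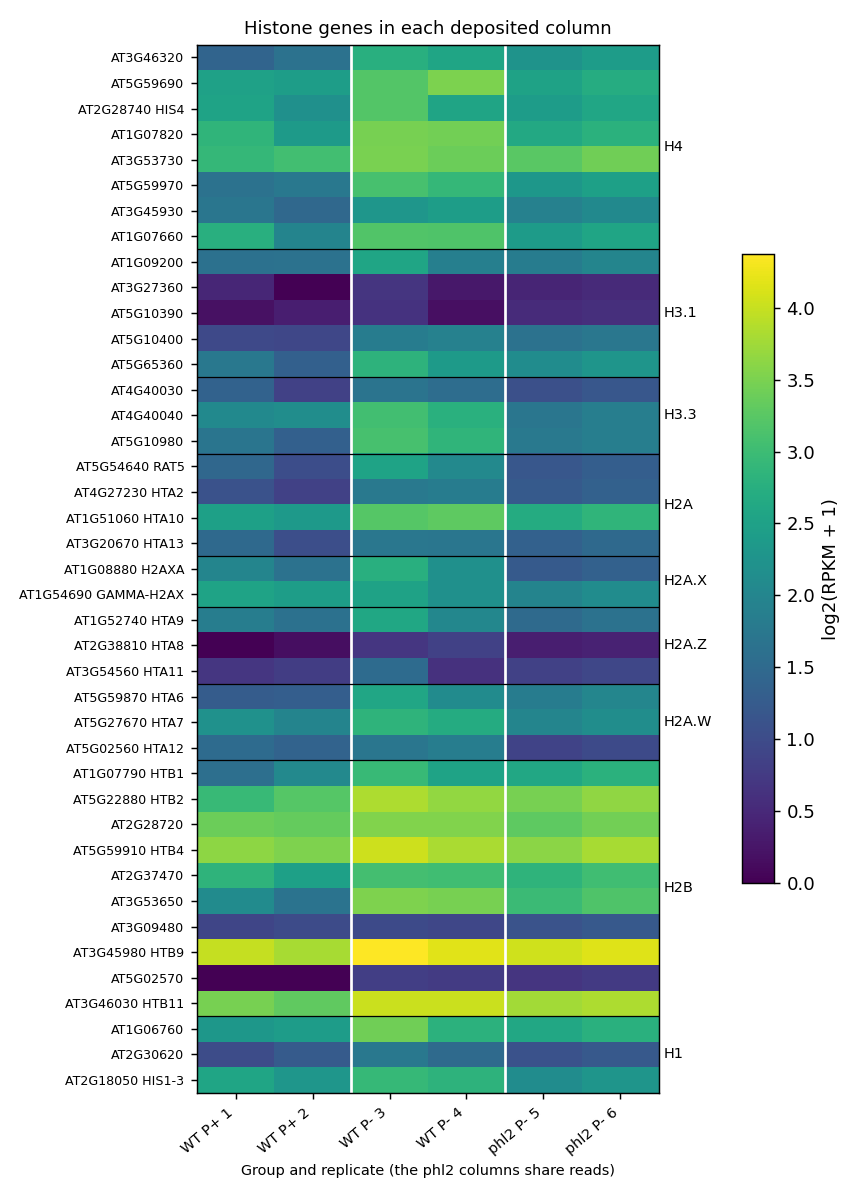
Level of each of the 41 histone genes (rows, by class) as log2(RPKM + 1) in the 6 deposited columns, in colour. H2B genes hold the highest levels, led by HTB9 at 12.9 to 19.7 RPKM, and the wild-type P- columns are the brightest in most rows.

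H2B genes were the most abundant of the histone genes in these libraries and took 38.4% to 47.9% of the summed histone RPKM of each column. H4 genes took 21.7% to 25.7%. Mean levels of single genes over the 5 samples ranged from 0.321 to 16.2 RPKM, and median reads per column from 3 to 135.5. In 12 genes every column had under 30 reads, so their values carry a wide counting error.

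Phosphate deficiency in wild type came with a higher mean summed value of each histone class as deposited. The 41 genes together summed to 149 and 132 RPKM with phosphate and to 263 and 227 without, a ratio of means of 1.74, or 1.23 after the rescaling described below. After it the ratio was 0.865 for H2A.X and 1.08 for H2B, and from 1.16 to 1.72 for the other classes. In the sum of the 41 genes both deficient libraries lay above both sufficient ones on both scales. An exact two-sided permutation test of 2 against 2 cannot give a p below 0.333. As a share of all reads in the table, histone reads were 0.192% (95% Wilson interval 0.181% to 0.205%) and 0.199% (0.186% to 0.212%) with phosphate. Without phosphate they were 0.256% (0.245% to 0.268%) and 0.239% (0.228% to 0.250%). The intervals cover counting error only, and those of the groups did not overlap.

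**Figure D2:**
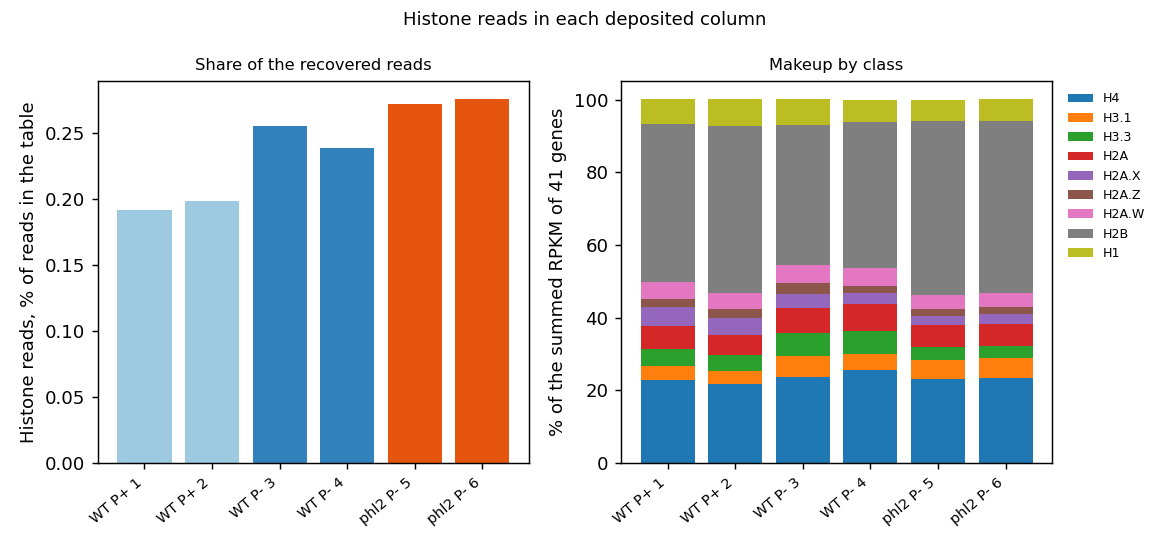
Left, reads of the 41 histone genes as a percentage of all reads in the table, in each column. Right, makeup of the summed histone RPKM by class, in percent. The share of reads was 0.192% and 0.199% with phosphate, 0.256% and 0.239% without, and 0.272% and 0.276% in the phl2 columns, which share reads.

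Gene by gene, 36 of the 41 had at least 1 RPKM in 2 or more columns and were tested with limma on log2(RPKM + 1), with Benjamini-Hochberg adjustment over all 11463 genes tested. As deposited, 21 of the 36 (58.3%) were called higher without phosphate at an adjusted p under 0.05 and 0 were called lower, against 28% and 4.45% of all genes. At an unadjusted p under 0.05, 31 (86.1%) passed in limma, beside 48% of all genes. The median log2 change was 0.68 over the 36 genes and 0.33 over all genes. Most genes in the table moved together, so each library was also rescaled by the median of its ratios to the geometric mean over genes, which brought the median of all genes to 0.01. After rescaling, 9 of the 36 (25%) were higher and 1 (2.78%) was lower, against 8.1% and 11.7% of all genes, and the median was 0.26. All 9 had also been called as deposited. Both deficient libraries were above both sufficient ones in 34 of 36 genes (94.4%) as deposited and in 18 (50%) after rescaling, against 62.1% and 32.1% of all genes. AT5G10400 and AT3G09480 had no sufficient library at 1 RPKM and passed the filter through the other groups. Without such genes, 20 of 34 (58.8%) were higher as deposited and 8 (23.5%) after rescaling, against 21.4% and 4.43% of the 9601 genes left.

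These counts rested on single libraries. Leaving out replicate 2, 3 or 4 changed the 21 calls as deposited to 11, 6 and 12, and leaving out replicate 3 or 4 changed the 9 rescaled calls to 1 and 2. With no filter on low values only 1 of 41 was called, over the 24207 genes above 0 in any column.

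**Figure D3:**
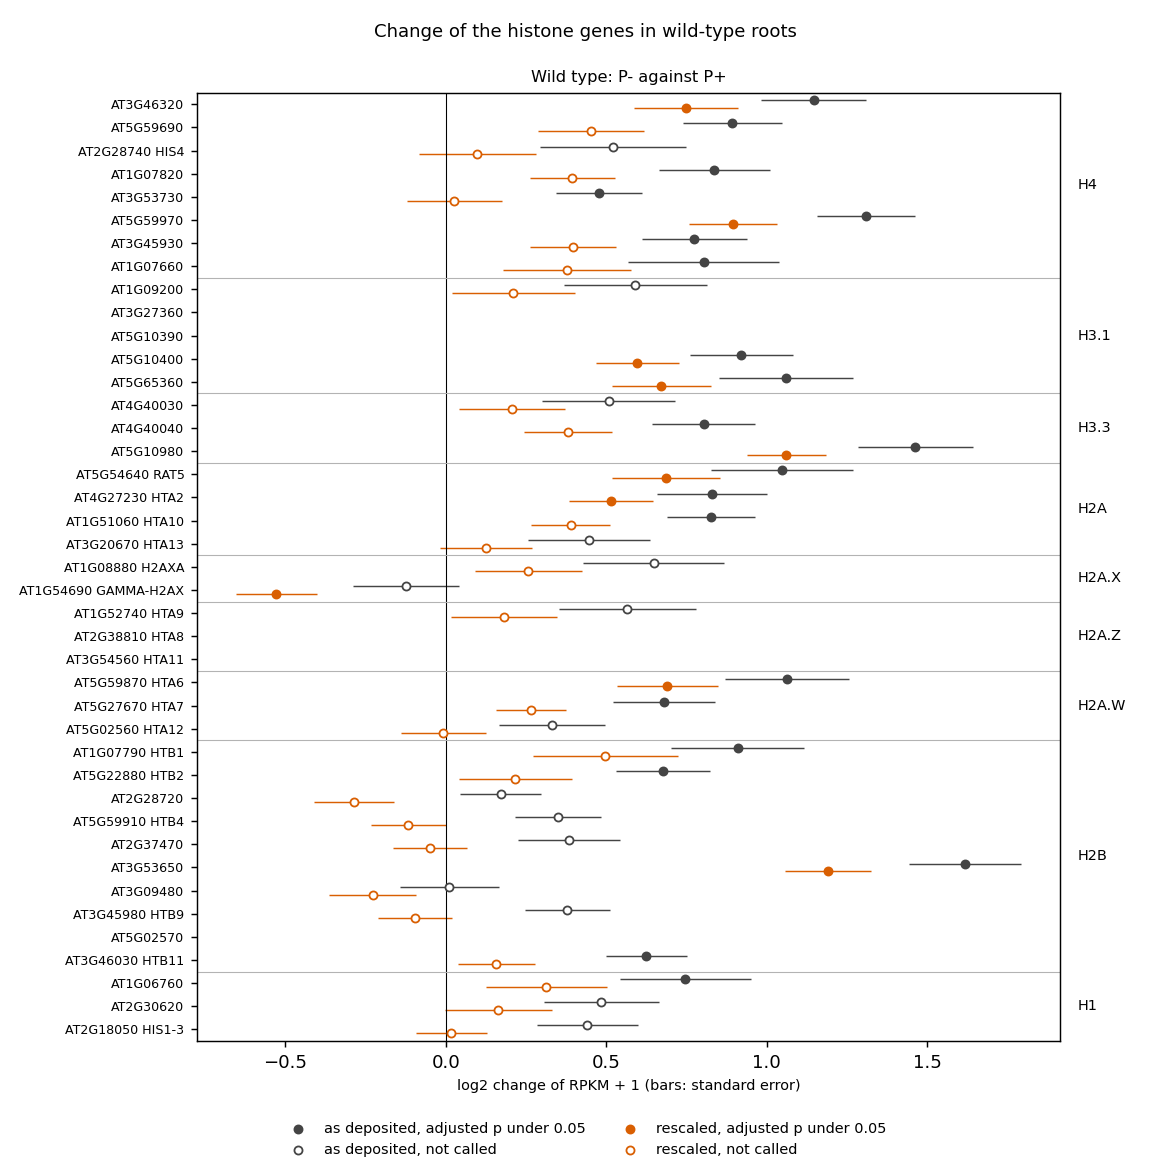
Log2 change of RPKM + 1 in wild type, P- against P+, for the 36 histone genes tested, with standard errors from limma (2 libraries a group). Dark points are values as deposited and orange points values after rescaling; filled points have adjusted p under 0.05. AT3G53650 lies farthest to the right, at 1.62, and GAMMA-H2AX alone is called lower after rescaling.

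Among the H4 genes, 7 of 8 rose as deposited (median 0.82) and 2 of 8 after rescaling (median 0.40). AT5G59970 (chromosome 5, 24145831 to 24146729) was at 2.12 and 2.36 RPKM with phosphate and at 7.58 and 6.49 without, and it changed by 1.31 ± 0.15 (SE; adjusted p = 0.00087, limma) as deposited and by 0.90 ± 0.14 (adjusted p = 0.0075) after rescaling. AT3G46320, of the closest pair shown above, was at 1.64 and 2.12 with phosphate and 5.77 and 4.97 without (1.15 ± 0.16; 0.75 after rescaling, adjusted p = 0.024). Its near copy AT3G45930, the lowest H4 gene, was at 2.27 and 1.78, then 3.91 and 4.42 RPKM. The groups of these genes did not overlap, and the rise of AT3G45930 was called as deposited only (0.77 ± 0.16, adjusted p = 0.012; 0.40, adjusted p = 0.084 after rescaling).

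AT5G59690 went from 4.66 and 4.39 to 8.25 and 10.4 RPKM (0.89 ± 0.15), and AT1G07820 from 6.24 and 4.24 to 10.1 and 9.91 (0.84 ± 0.17). Both rose as deposited and were not called after rescaling (adjusted p = 0.1 and 0.084). The most abundant H4 gene, AT3G53730, was at 6.49 and 7.23 with phosphate and 10.3 and 9.53 without. Its change was 0.48 ± 0.13 as deposited, which was called, and 0.03 ± 0.15 after rescaling.

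H3.1, the form of H3 placed behind the replication fork, had 3 of its 5 genes tested, of which 2 rose on both scales. AT5G65360 was at 2.35 and 1.52 RPKM with phosphate and 6.07 and 4.19 without (1.06 ± 0.21, adjusted p = 0.0088; 0.67, adjusted p = 0.029 after rescaling). AT5G10400 was at 0.96 and 0.904, then 2.55 and 2.77 (0.92 ± 0.16; 0.60 after rescaling, adjusted p = 0.024), and it was tested only because the groups other than the sufficient one reached 1 RPKM. Each rests on 6 to 16 reads per library with phosphate and 17 to 44 without. AT1G09200 was at 2.1 and 2.14, then 4.93 and 2.72, and was not called (0.59 ± 0.22, adjusted p = 0.071). AT3G27360, the lowest, was at 0.382 and 0 with phosphate and 0.598 and 0.221 without, and AT5G10390, 577 bp from AT5G10400 on the same strand, at 0.151 and 0.284, then 0.566 and 0.13. Neither was tested, and their groups overlapped.

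Among the H3.3 genes, whose product replaces H3 at transcribed genes, 2 of 3 rose as deposited and 1 after rescaling. AT5G10980 (chromosome 5, 3472405 to 3473570) went from 2.23 and 1.54 to 7.54 and 6.30 RPKM, a change of 1.46 ± 0.18 (adjusted p = 0.001) and of 1.06 ± 0.12 (adjusted p = 0.0032) after rescaling. AT4G40040, the most abundant, went from 3.21 and 3.42 to 7.29 and 5.83 (0.80 ± 0.16, adjusted p = 0.0089; 0.38, adjusted p = 0.1 after rescaling). AT4G40030, which lies 42 bp from it on the same strand, was at 1.59 and 0.791, then 2.19 and 1.94, and was not called. The groups did not overlap in any of the 3 genes. Their summed RPKM had the largest ratio of the 9 classes, 2.43 (1.72 after rescaling), from 6.39 ± 0.91 to 15.5 ± 2.09 (SD, n = 2).

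Of the 4 canonical H2A genes, 3 rose as deposited and 2 after rescaling. RAT5, whose mutant resists Agrobacterium transformation of roots, was at 1.75 and 1.05 RPKM, then 4.77 and 3.16 (1.05 ± 0.22, adjusted p = 0.011; 0.69, adjusted p = 0.035 after rescaling). HTA2, the lowest, was at 1.14 and 0.804, then 2.40 and 2.58 (0.83 ± 0.17; 0.52, adjusted p = 0.041 after rescaling). HTA10, the most abundant, was at 4.57 and 4.16, then 8.28 and 8.72 (0.83 ± 0.14, adjusted p = 0.0044; 0.39, adjusted p = 0.072 after rescaling). Groups did not overlap in these 3 genes, nor in HTA13, which was not called.

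In the H2A.W class, 2 of 3 genes rose as deposited and 1 after rescaling. HTA6 went from 1.41 and 1.46 to 5.03 and 3.29 RPKM and rose on both scales (1.06 ± 0.19, adjusted p = 0.0064; 0.69, adjusted p = 0.028). HTA7, the most abundant, went from 3.63 and 2.91 to 6.18 and 5.47 and rose as deposited only (0.68 ± 0.16, adjusted p = 0.016). HTA12, the lowest, was at 1.87 and 1.62, then 2.29 and 2.61 (0.33 ± 0.17, not called), and exons of other genes lie opposite 34.7% of its exonic length.

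Neither H2A.X gene was called higher. GAMMA-H2AX was at 4.77 and 4.37 RPKM with phosphate and 4.73 and 3.56 without, so that the groups overlapped. Its change was -0.12 ± 0.17 as deposited, and it was called lower after rescaling (-0.53 ± 0.13, adjusted p = 0.032). Exons on the other strand cover 62.3% of its exonic length, and the part of their reads in its value was not tested. H2AXA, whose protein differs from it at 2 positions, was at 2.98 and 2.14, then 5.73 and 3.56 (0.65 ± 0.22, adjusted p = 0.052; 0.26 after rescaling), with no overlap as deposited.

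Of the H2A.Z genes, HTA9 alone was tested, at 2.63 and 2.11 RPKM, then 5.06 and 3.07 (0.57 ± 0.21, adjusted p = 0.071). HTA8, the lowest, was at 0 and 0.124 with phosphate and 0.617 and 0.796 without, on 0, 1, 5 and 7 reads. HTA11 was at 0.617 and 0.726, then 1.88 and 0.533, and its groups overlapped.

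Of the 9 H2B genes tested, 4 rose as deposited (median 0.38) and 1 after rescaling (median -0.05). AT3G53650 (chromosome 3, 19889297 to 19890251) had the largest change of all histone genes tested. It went from 3.31 and 2.16 RPKM (13 and 9 reads) to 10.5 and 10.1 (44 and 46 reads), by 1.62 ± 0.17 (adjusted p = 0.00059) as deposited and 1.19 ± 0.13 (adjusted p = 0.0028) after rescaling. HTB1 went from 2.04 and 3.16 to 6.70 and 4.79 (0.91 ± 0.21, adjusted p = 0.015; 0.50, adjusted p = 0.17 after rescaling). HTB9, the most abundant histone gene, was at 14.9 and 12.9, then 19.7 and 17.1 (0.38 ± 0.13, adjusted p = 0.058; -0.10 after rescaling). Groups did not overlap as deposited in these genes, and exons on the other strand cover 37.3% of those of HTB9. HTB2 and HTB11 were the other H2B rises as deposited (0.68 and 0.62; 0.22 and 0.16, not called, after rescaling). AT2G28720 and AT3G09480 changed by 0.17 and 0.01 and were not called. AT5G02570 was listed at 0 in both sufficient libraries and at 0.749 and 0.691 RPKM without phosphate. It lies inside HTA12 on the other strand, exons on that strand cover 100% of its exonic length, and it was not tested.

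Of the 3 linker histone genes, 1 rose as deposited and 0 after rescaling. AT1G06760, the most abundant, was at 3.99 and 4.31 RPKM, then 9.69 and 5.98 (0.75 ± 0.20, adjusted p = 0.027; 0.31, adjusted p = 0.29 after rescaling), with 41.9% of its exonic length covered by exons on the other strand. AT2G30620, the lowest, was at 1.03 and 1.40, then 2.36 and 1.84 (0.49 ± 0.18, not called). HIS1-3, the linker histone known for its induction by drought and abscisic acid, was at 4.97 and 3.90, then 6.61 and 6.09 (0.44 ± 0.16, adjusted p = 0.06; 0.02 after rescaling). The groups of all 3 genes were apart as deposited.

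Under deficiency the phl2 sample had lower histone values than wild type as deposited and did not once the shift of all genes was removed. The 41 genes summed to 164 and 186 RPKM in the phl2 columns, 0.712 of the deficient wild-type mean as deposited and 1.19 of it after rescaling. As deposited, 9 of the 36 tested (25%) were called lower and 0 higher, against 19.5% and 0.288% of all genes, with a median of -0.41 beside -0.48 over all genes. At an unadjusted p under 0.05, 14 (38.9%) passed, all lower, beside 48.5% of all genes. After rescaling limma called 0 in either direction, against 0.0698% of all genes higher and 0.0174% lower, and the median turned to 0.20, beside -0.01. At an unadjusted p under 0.05, 7 were then higher and 5 lower (33.3% in all, beside 18.9% of all genes), and the smallest adjusted p was 0.17. As 1 sample, phl2 is assumed to vary like wild type, and the 9 calls became 0 without replicate 3, 4 or 5 and 0 with a pseudocount of 0.1.

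H3.3 had the lowest ratio of class sums in phl2. AT5G10980, at 7.54 and 6.30 RPKM in deficient wild type, was at 2.41 and 2.66 in the phl2 columns (-1.16 ± 0.22, adjusted p = 0.04; -0.57, adjusted p = 0.17 after rescaling). AT4G40040, at 7.29 and 5.83 in wild type, was at 2.29 and 2.64 (-1.12 ± 0.20, adjusted p = 0.04; -0.54, adjusted p = 0.18). AT4G40030 was at 1.1 and 1.27 (-0.49 ± 0.25, not called). The summed RPKM of the class in phl2 came to 0.398 times the deficient wild-type mean (0.663 after rescaling), below those of the other classes on both scales, and the share of H3.3 in the histone RPKM was 3.54% in phl2 against 6.48% and 6.18%. As deposited the change was below 0 in all 3 genes and in 35 of the 36 histone genes tested. The same held in 10456 of all 11463 genes tested, so a lower value in phl2 was not particular to H3.3.

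H2A.X, H2A.W and canonical H2A genes supplied 4 of the other calls. H2AXA had the lowest change of a single gene on both scales, at 1.36 and 1.57 RPKM in phl2, below 5.73 and 3.56 (-1.17 ± 0.27, adjusted p = 0.04; -0.65 after rescaling, adjusted p = 0.19). RAT5 was at 1.28 and 1.48 (-1.04 ± 0.27, adjusted p = 0.043). HTA12 was at 0.846 and 0.978 (-0.85 ± 0.20, adjusted p = 0.041), and HTA7 at 2.97 and 3.43 (-0.70 ± 0.19, adjusted p = 0.045). The last 3 calls were HIS1-3, at 3.35 and 3.87 (-0.67 ± 0.19), and the H4 genes AT5G59690, at 4.75 and 5.49, and AT1G07820, at 5.23 and 5.92 (-0.75 ± 0.19 and -0.74 ± 0.21). Of the 9 genes lower in phl2, 6 had been called higher in deficient wild type, beside 21 of all 36 tested (58.3%). Both comparisons use the same deficient libraries.

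H2B genes were the other end of the range. None of the 9 tested was called lower in phl2 as deposited by limma, beside 19.5% of all genes. After rescaling all 9 changes were above 0, beside 5589 of 11463 genes, with a median of 0.50, though 0 were called. HTB9 was at 15.7 and 16.9 RPKM, HTB1 at 5.14 and 5.95, and AT3G53650 at 6.93 and 8.01. HTB1 overlapped the deficient wild-type values of 6.70 and 4.79, and the other two lay below theirs. Summed H2B RPKM in phl2 was 0.865 of that of deficient wild type as deposited and 1.44 of it after rescaling. Its share of the histone RPKM was 47.9% and 47.3% in phl2, 38.4% and 40.1% in deficient wild type and 43.6% and 46% with phosphate. Whether H2B and H3.3 differ in their change was not tested.

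**Figure D4:**
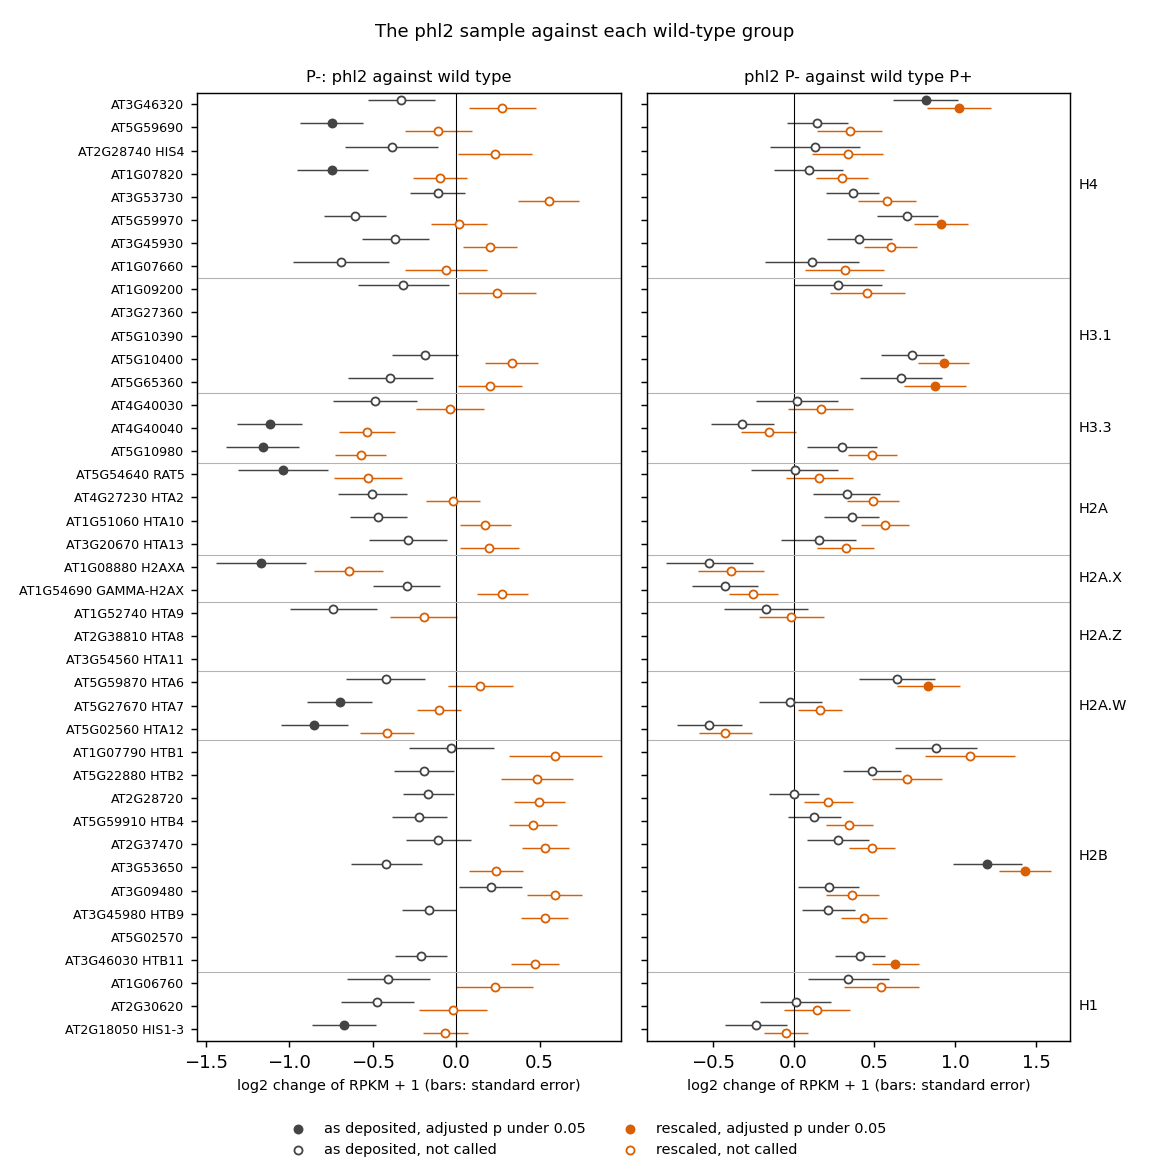
Log2 change of RPKM + 1 for the 36 histone genes tested in the phl2 sample against deficient wild type (left) and against sufficient wild type (right), with standard errors from limma. Dark points are as deposited, orange points rescaled, and filled points have adjusted p under 0.05. On the left the 9 tested H2B genes lie above 0 after rescaling and the 3 H3.3 genes below it.

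Set against wild type with phosphate, where medium and genotype differ together, the phl2 sample had a higher summed histone value. The 41 genes summed to 1.24 times the sufficient wild-type mean as deposited and to 1.46 times it after rescaling, beside 1.74 and 1.23 for deficient wild type. By class the ratio was 0.647 for H2A.X (0.762 rescaled) and 0.967 for H3.3 (1.14 rescaled), and above 1 for the other classes on both scales. Of the 36 changes tested, 7 were below 0 as deposited and 6 after rescaling. As deposited 2 of the 36 (5.56%) were called higher and 0 lower, against 2.54% and 5.22% of all genes, and 10 (27.8%) passed an unadjusted p under 0.05 in limma, beside 22.7% of all genes. After rescaling 7 (19.4%) were higher and 0 lower, against 5.18% and 5.15%, with 17 (47.2%) at an unadjusted p under 0.05, beside 26.6%. The medians were 0.22 and 0.40, beside -0.14 and 0.00 over all genes. Of the 7, AT5G10400 had no sufficient library at 1 RPKM and passed the filter only through the other groups. The filter also counted both phl2 columns, which share reads. The shares without genes admitted in these ways were not counted for this comparison. The pair called as deposited was AT3G53650 (1.2, adjusted p = 0.014) and AT3G46320 (0.82, adjusted p = 0.045), and the 5 added by rescaling were AT5G59970, AT5G10400, AT5G65360, HTA6 and HTB11. Leaving out replicate 2, 3 or 4 changed the 7 calls to 11, 1 and 1. The 2 calls as deposited became 1 without replicate 1, 2, 3, 4 or 6 and 3 without replicate 5.

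Genes whose products act with histones or in the cell cycle were followed beside them in wild type. Of 47 such genes in 5 lists, 20 were tested. As deposited 5 (25%) rose and 0 fell, with a median of 0.36, near the 28% and 0.33 of all genes. After rescaling 1 (5%) rose, beside 8.1% of all genes, with a median of 0.04. No sufficient library held PCNA1, PCNA2, CDKB2;2, MET1 or ASF1B at 1 RPKM, so these passed the filter through other groups. Without them 2 of 15 (13.3%) rose as deposited and 0 after rescaling, against 21.4% and 4.43% of the 9601 genes left by the same rule. PCNA1, the sliding clamp of DNA replication, went from 0.311 and 0.195 to 1.36 and 1.52 RPKM (0.96 ± 0.15, adjusted p = 0.0033; 0.74, adjusted p = 0.013 after rescaling) and was at 0.991 and 1.15 in phl2. Its groups did not overlap, and it was the sole companion gene called on both scales, but the filter admitted it only through the groups where it was high. Only 3 of the 13 replication genes reached the level for testing. The others were PCNA2 (0.29 ± 0.19, not called) and TSO2, a subunit of ribonucleotide reductase (0.16 ± 0.18, not called).

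Of 9 tested histone chaperones, out of 13, 1 rose. NAP1;3, a chaperone of H2A and H2B, went from 3.46 and 2.78 to 5.0 and 4.66 RPKM (0.50 ± 0.16, adjusted p = 0.041; 0.10 after rescaling). ASF1B, a chaperone of H3 and H4, was at 0.758 and 0.51, then 1.12 and 1.31 (0.44 ± 0.16, not called). SPT16, of the FACT complex, was at 3.47 and 2.80, then 4.30 and 4.77 (0.42 ± 0.16, not called), and at 2.15 and 2.48 in phl2. It was the sole companion gene called lower there (-0.74 ± 0.20, adjusted p = 0.043; -0.18 after rescaling).

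Of 4 tested G2 and mitosis genes, 2 rose as deposited and 0 after rescaling. The mitotic kinase gene CDKB2;2 went from 0.525 and 0.577 to 1.72 and 1.21 RPKM (0.66 ± 0.17, adjusted p = 0.021), tested only through the deficient wild-type libraries, and the cyclin CYCB1;2 from 1.07 and 0.715 to 2.37 and 1.48 (0.62 ± 0.20, adjusted p = 0.049). SYP111, the syntaxin of the cell plate, changed by 0.49 ± 0.20 and was not called. The cell cycle regulators CYCD3;1 and CDKA;1 changed by 0.27 and 0.22 and were not called. Of 2 tested chromatin modifiers, MET1, the maintenance DNA methyltransferase, rose as deposited (0.55 ± 0.17, adjusted p = 0.04; 0.31 and not called after rescaling), while ARP6, of the complex that places H2A.Z, changed by 0.09 ± 0.25. Summed RPKM of 3 root apex markers, 2 of them above 0 in every column, was 0.972 and 1.26 with phosphate, 1.15 and 1.48 without and 1.46 and 1.68 in phl2. The members differed: PLT1 was at 0.149 and 0 with phosphate and 0.373 and 0.344 without, PLT2 at 0.398 and 0.187, then 0.373 and 0.645, and WOX5 at 0.425 and 1.07, then 0.399 and 0.49. None reached the level for testing, and the part of root tip cells in the histone values was not tested.

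Promoters were searched for the letters of motifs known from histone and replication genes. The histone octamer CGCGGATC, on either strand of the 250 bases before the annotated start, was present in 10 of 41 histone genes (24.4%), beside 37 of 27443 promoters in the whole annotation (0.135%). It was in 3 of 5 H3.1, 2 of 4 H2A and 2 of 8 H4 genes and in 0 of 10 H2B genes. The hexamer core ACGTCA, known from wheat histone promoters as a site of bZIP factors, was in 11 of 41 (26.8%), beside 7.69%, and 8 of those 11 were H2B genes. Letters of E2F sites, which mark genes of DNA synthesis (TTTCCCGC, TTTGGCGC, TTTCGCGC or TTTGCCGC), were in 3 of 41 (7.32%), beside 1.41% of all promoters and 5 of 13 replication genes (38.5%). Of these 3 histone genes, 2 were the near copies AT3G46320 and AT3G45930, whose promoters are almost the same, with the match 237 bases before the start in each. In both genes with matches to more than 1 motif, AT5G10400 and HTB2, the matches did not overlap.

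**Figure D5:**
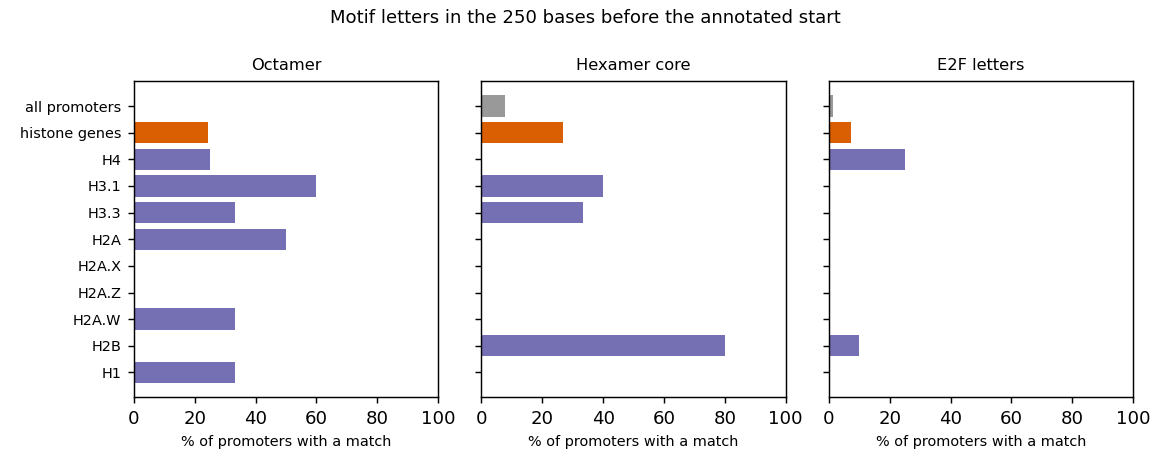
Percentage of promoters (250 bases before the annotated start) that hold each motif, for all promoters of the annotation, the 41 histone genes and each class. The octamer is in 60% of H3.1 promoters and 0% of H2B promoters, and the hexamer core in 80% of H2B promoters.

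Promoters of 5 genes are shown because they carry these motifs and their genes differ in response (RefSeq, TAIR10.1, 250 bases before the annotated start, read on the gene's strand). Capitals mark the octamer, the hexamer core or the E2F letters on either strand.
AT3G53650, H2B, chr3:19889047-19889296, plus strand: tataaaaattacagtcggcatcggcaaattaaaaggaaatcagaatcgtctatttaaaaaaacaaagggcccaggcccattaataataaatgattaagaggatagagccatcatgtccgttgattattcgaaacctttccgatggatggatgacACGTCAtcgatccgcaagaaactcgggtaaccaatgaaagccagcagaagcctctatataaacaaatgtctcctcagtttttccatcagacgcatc
AT5G22880 HTB2, H2B, chr5:7652715-7652964, minus strand: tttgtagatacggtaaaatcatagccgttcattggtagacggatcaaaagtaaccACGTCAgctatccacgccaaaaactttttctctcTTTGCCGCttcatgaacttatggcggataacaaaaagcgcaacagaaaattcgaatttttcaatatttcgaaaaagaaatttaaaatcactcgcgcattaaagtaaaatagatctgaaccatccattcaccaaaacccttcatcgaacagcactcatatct
AT1G51060 HTA10, H2A, chr1:18926561-18926810, plus strand: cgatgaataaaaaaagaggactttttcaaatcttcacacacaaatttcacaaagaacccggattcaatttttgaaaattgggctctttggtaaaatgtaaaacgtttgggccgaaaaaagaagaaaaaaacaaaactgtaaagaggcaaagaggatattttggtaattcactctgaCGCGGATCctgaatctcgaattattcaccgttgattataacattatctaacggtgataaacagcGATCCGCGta
AT1G09200, H3.1, chr1:2972335-2972584, minus strand: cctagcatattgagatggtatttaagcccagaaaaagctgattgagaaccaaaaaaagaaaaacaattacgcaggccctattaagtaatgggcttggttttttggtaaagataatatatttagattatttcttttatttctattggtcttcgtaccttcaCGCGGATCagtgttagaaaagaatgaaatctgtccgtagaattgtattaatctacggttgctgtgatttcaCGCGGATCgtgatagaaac
AT5G10980, H3.3, chr5:3473571-3473820, minus strand: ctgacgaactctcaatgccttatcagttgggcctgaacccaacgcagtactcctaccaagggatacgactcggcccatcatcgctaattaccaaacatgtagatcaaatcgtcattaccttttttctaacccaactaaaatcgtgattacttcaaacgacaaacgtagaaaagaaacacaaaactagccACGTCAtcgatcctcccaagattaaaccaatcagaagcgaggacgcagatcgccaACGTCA
AT3G53650, with the largest rise, has 1 hexamer core, which begins 96 bases before the start. HTB2, which rose as deposited only, has 1 hexamer core at 195 bases and 1 E2F match at 161. HTA10 and AT1G09200 each hold the octamer at a pair of places, 74 and 10 bases before the start in HTA10 and 90 and 19 in AT1G09200. AT5G10980, which fell in phl2 as deposited, has the hexamer core at 61 and 6 bases.

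Grouped by motif, 8 of the 10 tested octamer genes rose in wild type as deposited and 3 after rescaling, with medians of 0.82 and 0.39. Of 9 tested genes with the hexamer core, 6 rose as deposited and 3 after rescaling, with medians of 0.68 and 0.22. The 3 tested genes with E2F letters all rose as deposited and 1 after rescaling, with medians of 0.77 and 0.40. Among these 3, AT3G46320 and AT3G45930 are near copies whose reads may be shared, so they are not independent cases. Of 16 tested genes with none of the motifs, 6 and 3 rose, with medians of 0.51 and 0.17. Over all genes tested, 28% rose as deposited and 8.1% after rescaling. In phl2 against deficient wild type the medians of the octamer, hexamer, E2F and no-motif groups were -0.41, -0.19, -0.33 and -0.55 as deposited. In these groups 2, 1, 0 and 6 genes were called lower, beside 19.5% of all genes. After rescaling the medians were 0.19, 0.48, 0.28 and -0.03, with 0 called in each. A match is a description of letters, AT5G10400 and HTB2 are each counted in 2 motif groups, and no difference between the groups was tested.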

How the data were processed

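Polyadenylated RNA of 6 root libraries was measured. The authors deposited 1 table of RPKM values for 33602 genes, and per the submitters' processing notes TopHat2, DESeq2 and the build TAIR10 were used, with no versions or roles. For the counter, its strand setting and the gene lengths, nothing is stated in those notes or in the table. Reads were recovered from the steps of the values: 99.8% of genes above 0 were whole multiples of 1 unit within 0.01 read in every column. For AT5G02570 and AT2G18050 the unit was taken as more than 1 read, so their reads are uncertain. For a gene 1 kb long, 1 RPKM stands for 9.42 to 12.8 reads. Since the values are RPKM, no count test was run.

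limma 3.58.1 (R 4.3.3) fitted log2(RPKM + 1), a scale that understates changes of low genes, over the 11463 genes that reached 1 RPKM in 2 or more columns, with 1 mean per group and a variance trend. The 5 samples, with the phl2 columns averaged, left 2 residual degrees of freedom (prior 6.34), and phl2 is assumed to vary like wild type. Tests were two-sided with Benjamini-Hochberg adjustment over all genes at 0.05, and the fit was tested on simulated data. Rescaling factors were 0.994, 0.831, 1.36, 1.22 and 0.775 for replicates 1 to 4 and phl2. The labels do not say whether replicates were separate plants, and the spread that p-values measure may be only technical.

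Genes named with their values were the highest and lowest of each class, the 12 called genes with the largest wild-type change, and up to 3 genes per companion list with the smallest adjusted p. Further members named for a call or for a place near the threshold were added after their values were seen. The members and lists were chosen with earlier results of these data known. Names and coordinates come from RefSeq on TAIR10.1, 1-based, which matched 32827 of the table's genes. Alternatives were other scalings, pseudocounts and filters, both phl2 columns as replicates, no variance trend, a count over genes with a P+ library at the filter level (chosen after seeing the data), genes with no opposite-strand exon, and leaving out each replicate.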

Additional observations from a re-analysis of the deposited data

How the results depend on the processing

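No paired analysis was possible because each replicate number occurs in 1 group. Without phosphate against with it, the count of histone genes called higher (21) was 9 after rescaling, 1 with no filter and 32 with both phl2 columns as replicates, and 1 was then lower after rescaling, as in the rescaled fit itself. Leaving out 1 replicate gave 6 to 22 higher as deposited and 1 to 10 rescaled, and 0 to 1 lower. The median of 0.68 was 0.26 rescaled, 0.45 after quantile normalization, 0.256 rescaled with both phl2 columns and 0.254, 0.292, 0.21, 0.302, 0.263 and 0.26 rescaled without replicate 1 to 6. Counted over genes with a sufficient library at 1 RPKM, an alternative chosen after seeing the data, the count of 21 was 20, or 8 rescaled. The companion count of 5 was 2 counted so, or 0 rescaled, 1 rescaled over all tested, 1 after quantile normalization, 2 with a pseudocount of 0.1, 0 with no filter or a filter of 5 RPKM, 10 with both phl2 columns (2 higher and 1 lower rescaled) and 0 to 5 without 1 replicate.

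For phl2 against deficient wild type, the count of 9 lower was 0 rescaled, after quantile normalization, with a pseudocount of 0.1 or with no filter, and 19 with both phl2 columns (8 higher and 4 lower rescaled). Leaving out 1 replicate gave 0 to 12 lower and 0 to 1 higher. The median of -0.41 reversed to 0.20 rescaled, 0.032 after quantile normalization, 0.202 rescaled with both phl2 columns and 0.202, 0.205, 0.181, 0.061, 0.21 and 0.191 rescaled without replicate 1 to 6. The companion count of 1 lower was 0 rescaled, after quantile normalization, with a pseudocount of 0.1, with no filter or with a filter of 5 RPKM, 11 with both phl2 columns (2 higher and 0 lower rescaled) and 0 to 3 without 1 replicate.

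For phl2 against sufficient wild type, the count of 2 higher was 7 rescaled or after quantile normalization, 1 with a pseudocount of 0.1 or no variance trend, 0 with no filter, 9 with both phl2 columns (18 rescaled, with 1 lower on each scale) and 1 to 11 without 1 replicate. The median of 0.22 was 0.40 rescaled, with 1 or both phl2 columns, and 0.407, 0.425, 0.397, 0.399 and 0.401 rescaled without replicate 1, 2, 3, 4 or 6. The companion count of 0 higher was 1 rescaled, after quantile normalization, with a pseudocount of 0.1 or 0.5 and with both phl2 columns (4 higher and 1 lower rescaled), and 0 to 1 higher and 0 to 1 lower without 1 replicate.

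Among single genes, changes called as deposited turned sign in AT3G53730 (-0.16) and HTB2 (-0.039) rescaled without replicate 1, and in AT5G59690 in phl2 (0.11) rescaled without replicate 4. In phl2, changes below 0 as deposited became calls above 0 in AT3G53730 (0.559) rescaled without replicate 2. With both phl2 columns rescaled the same held for AT3G53730 (0.558), AT5G10400 (0.335), AT2G28720 (0.505), HTB4 (0.466), AT2G37470 (0.538), HTB9 (0.540) and HTB11 (0.480). The cause of these changes was not tested. Depth limits the genes of few reads, and p-values for phl2 rest on 1 sample.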
